A study of Mus musculus with 25 samples.

Results

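The 14 male mice of the series, numbered 12 to 25 in the labels, form its comparison of gonadotropin-releasing hormone (GnRH) with placebo in males. They are 14 of 25 animals. Placebo males are animals 12 to 17 (n = 6) and GnRH males are animals 18 to 25 (n = 8), and the labels alone decided which animal belongs where. All of them are hpg/hpg, hypogonadal mice that carry a mutation of the GnRH gene and make no GnRH, so the placebo males lack the hormone too and no wild-type animal stands beside them. GnRH males received 1 µg GnRH and placebo males saline, injected into the peritoneum once daily for 10 days, and pituitaries were frozen 1 h after the last injection. Age is not given in the sources used here. Each animal gave 1 library of polyadenylated RNA from its pituitary, with ribosomal and globin transcripts depleted. Values are regularized log2 values as deposited, so a difference of 1 is a factor of about 2 on that scale. The scale is not corrected for transcript length, and levels of different genes are therefore not compared.

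GnRH comes from hypothalamic neurons and acts on gonadotropes, the pituitary cells that make follicle-stimulating hormone (FSH) and luteinizing hormone (LH). Its receptor couples through Gq to phospholipase C, inositol trisphosphate, calcium and protein kinase C, and from there to MAP kinases and to immediate early genes, which are transcribed within minutes without new protein synthesis. FSH and LH share the alpha subunit encoded by Cga and owe their specificity to the beta subunits encoded by Fshb and Lhb. Gonadotropes are a minority of pituitary cells, next to somatotropes, lactotropes, thyrotropes, corticotropes and melanotropes.

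The libraries had high correlations and close medians, and their sex matched the labels. Medians of normalized values are held close, so they would not show every unlike library. Pairwise correlations among the 14 males over the 19141 genes tested lay between 0.995 and 0.998, and library medians between 8.10 and 8.13. Xist, transcribed from the inactive X chromosome, lay between 7.90 and 8.89 in males against 13.76 to 14.32 in the 11 females, and the Y-linked Ddx3y between 9.30 and 9.94 against 6.44 to 6.71. The pituitary hormone genes were present in every male: Gh ran from 21.09 to 21.64, Prl from 16.89 to 18.12 and Pomc from 17.43 to 19.39. Sequencing depth is unknown, since no counts were analysed here.

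With GnRH, 86 genes were higher and 9 were lower than with placebo at an adjusted p under 0.05 in limma, and these are the genes referred to as called. That is 0.496% of the genes tested, 0.449% higher and 0.047% lower. Most of the higher genes moved by modest amounts: 12 of 86 differed by at least 1, 42 by under 0.5, and the median was 0.50. The 4 largest differences belonged to Fshb, the small GTPase Rrad, the transcription factor Atf3 and the synaptic scaffold Homer1. In 42 of the 86 higher genes every GnRH male lay above every placebo male, and in a further 37 genes 7 of 8 did. In 4 of the 9 lower genes every GnRH male lay below every placebo male. Over all genes tested, such separation upward held for 0.345% and downward for 0.0575%. The gene nearest inside the threshold was Agpat4 (adjusted p = 0.0479), and the nearest outside was Midn (0.0517, with a difference of 0.50). Of the 91 called genes that may be named, 37 kept their call whichever of the 14 males was left out, and the count of calls ranged from 46 without placebo animal 14 to 153 without GnRH animal 19. With no filter on low values 42 genes were called, 40 of them among the 95, and without GnRH animals 18 and 21 together 38 were called, 37 of them among the 95. Of the 91 named calls, 55 were lost without animals 18 and 21. These animals had the highest mean deviations over the 86 higher genes (0.89 and 0.85). Leaving them out therefore lowers the mean difference of those genes and also leaves fewer GnRH males. Of the 54 lost without some single male, 8 (Gnrhr, Isl1, Mamld1, Arrb2, Umps, Kcna4, Bean1 and B3galt5) held without these animals, and the others did not. Below, losses without animals 18 and 21 and losses with no filter on low values are not repeated for every gene. At an unadjusted p under 0.05, 6.42% of the genes tested passed, 4.17% upward and 2.25% downward, and the counts of that kind given for gene lists are to be read against this. Counts of called list members are to be read against the 0.496% called over all genes tested. The lists were written with earlier results of these data known, so a higher share in a list tests nothing.

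**Figure D1:**
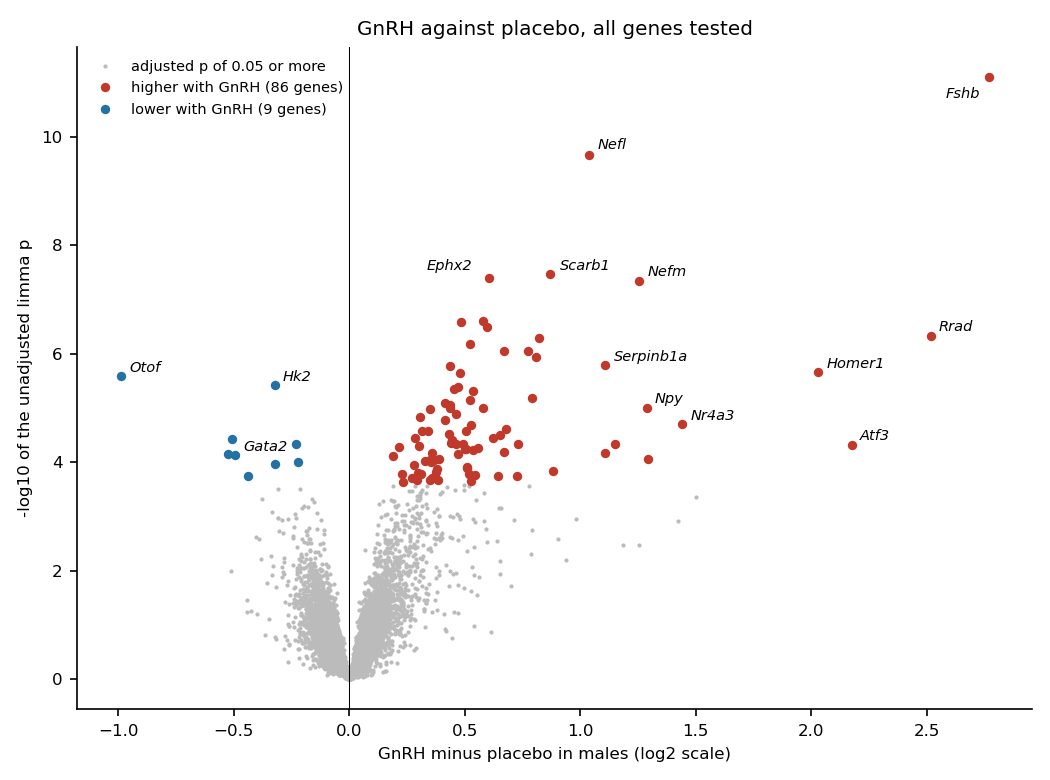
Difference between GnRH and placebo males (log2 scale) against the -log10 of the unadjusted limma p for 19141 genes. The 86 genes higher with GnRH are red and the 9 lower are blue. Fshb stands at the far right and top at 2.77, and Otof is the lower gene with the largest difference at -0.99.

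The gonadotropin genes came first. Fshb ran from 9.05 to 9.94 in placebo males, with a median of 9.31, and from 11.30 to 12.86 in GnRH males, with a median of 12.17. The groups did not come near each other: the lowest GnRH male, animal 20, was at 11.30, and the highest placebo male, animal 15, at 9.94. Animals 22 to 25 were the highest, between 12.53 and 12.86. Fshb was 6.81-fold higher, a difference of 2.77 (SE 0.24, adjusted p = 1.52e-07, with 5.20e-08 to 1.07e-05 over 24 alternative fits). Lhb ran from 10.13 to 10.69 in placebo males, with a median of 10.51, and from 10.49 to 11.11 in GnRH males, with a median of 10.80. In 6 of 8 GnRH males it lay above every placebo male, and animal 21 was lowest of the treated at 10.49. The difference of 0.31 (SE 0.11, adjusted p = 0.414, with 0.196 to 0.97 over 24 alternative fits) did not pass. Cga ran from 14.09 to 15.25 in placebo males, with a median of 14.58, and from 14.50 to 15.32 in GnRH males, with a median of 14.92, and the groups overlapped. Its difference of 0.33 did not pass either (adjusted p = 0.721). In bulk tissue, a change in the number of gonadotropes and a change in RNA per gonadotrope cannot be told apart.

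The genes that receive GnRH and set gonadotrope identity moved in both directions. Gnrhr, the receptor for GnRH, ran from 8.80 to 9.46 in placebo males, with a median of 9.07, and from 9.37 to 10.37 in GnRH males, with a median of 9.74. Animal 19 had the highest value (10.37), and only animal 24 (9.37) lay below a placebo male, animal 12. Gnrhr was 1.66-fold higher, a difference of 0.73 (SE 0.15, adjusted p = 0.0171, with 0.00755 to 0.0703 over 24 alternative fits), and its call ended without placebo animal 14 (0.0703) or 16 (0.0551). Isl1, a LIM-homeodomain factor of gonadotropes, was higher by 0.65 (SE 0.13, adjusted p = 0.0145, with 0.00869 to 0.0546 over 24 alternative fits), in 8 of 8 GnRH males above every placebo male, and lost its call without placebo animal 14. Gata2, a zinc finger factor of gonadotropes and thyrotropes, was the list's only lower call. Its levels ran from 10.66 to 11.22 in placebo males, with a median of 10.92, and from 9.92 to 10.70 in GnRH males, with a median of 10.49, animal 21 was the lowest at 9.92, and the difference was -0.50 (SE 0.11, adjusted p = 0.0216, with 0.01 to 0.116 over 24 alternative fits). Leaving out placebo animals 13, 14 or 17 or GnRH animal 18 ended that call, with 0.0921 as the highest value. Nr5a1, the nuclear receptor SF-1, had a difference of -0.40 (adjusted p = 0.189) and the forkhead factor Foxl2 one of -0.21 (adjusted p = 0.689). Of 14 gonadotrope genes tested, 7 had positive differences, 3 were called higher and 1 lower, and their median difference was 0.02, against -0.0022 over all genes tested.

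To show the promoters of genes that moved together, windows from 250 bases before to 50 after the start site were taken from RefSeq (build GRCm38.p6, which has the coordinates of mm10) for the 20 largest upward differences among called genes with a name, of which 12 matched. Each window was searched on both strands for 4 motifs bound by factors downstream of GnRH signalling: the cAMP response element (TGACGTCA), the AP-1 site (TGANTCA), the EGR1 site (GCGNGGGCG) and the CArG box of serum response factor. The AP-1 site was found in 3 of 12 genes (Fshb, Srxn1 and Lor), against 8.97% of all 27025 genes in the table, a gene counting once if any of its windows matched, and the EGR1 site in 1, Tnfrsf12a, against 6.27%. The cAMP response element and the CArG box matched none of the 12 and 2.03% and 1.81% of all genes. The 250 bases before the start site are printed for 3 of them, 5′ to 3′ on the gene's strand, with the matches in capitals. They are chr2:107059652-107059901 on the minus strand for Fshb, chr2:152105274-152105523 on the plus strand for Srxn1, and chr17:23677450-23677699 on the minus strand for Tnfrsf12a, where a pair of EGR1 matches overlap. A match is a description of the sequence and does not show that a factor binds there.
Fshb: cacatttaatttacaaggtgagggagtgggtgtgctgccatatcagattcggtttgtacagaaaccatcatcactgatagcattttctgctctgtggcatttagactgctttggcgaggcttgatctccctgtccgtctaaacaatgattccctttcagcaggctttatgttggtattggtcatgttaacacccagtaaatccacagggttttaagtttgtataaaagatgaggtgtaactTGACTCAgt
Srxn1: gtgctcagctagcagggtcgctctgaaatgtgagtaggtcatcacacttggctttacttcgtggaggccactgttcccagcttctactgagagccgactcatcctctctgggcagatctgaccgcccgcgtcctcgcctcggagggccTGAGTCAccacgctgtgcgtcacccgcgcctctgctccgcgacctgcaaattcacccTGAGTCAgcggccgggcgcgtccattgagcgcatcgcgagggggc
Tnfrsf12a: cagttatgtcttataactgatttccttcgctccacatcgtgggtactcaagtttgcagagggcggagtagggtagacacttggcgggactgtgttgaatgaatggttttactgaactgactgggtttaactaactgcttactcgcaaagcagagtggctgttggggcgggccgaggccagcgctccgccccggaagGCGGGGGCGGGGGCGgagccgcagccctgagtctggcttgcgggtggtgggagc

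Immediate early genes, the class transcribed first after GnRH signalling, nearly all had positive differences, and 4 of them were called higher. Of 37 tested, 36 had positive differences, 24 had an unadjusted p under 0.05, all of them upward, 4 were called higher and 0 lower, and the median difference was 0.47. Among all genes tested 48.5% had positive differences and 0.496% were called. Atf3, a stress- and signal-induced factor that binds AP-1 and cAMP response sites, ran from 6.31 to 6.89 in placebo males, with a median of 6.45, and from 6.50 to 10.71 in GnRH males, with a median of 8.54. Animals 18 and 21 reached 10.71 and 10.55, and animal 19, at 6.50, lay inside the placebo range. Atf3 was 4.52-fold higher, a difference of 2.18 (SE 0.45, adjusted p = 0.0172, with 0.000859 to 0.0691 over 24 alternative fits). The call ended without placebo animal 12 (0.0504) or 14 (0.0546) and with a robust variance model (0.061), and without animals 18 and 21 together the difference was 1.54 (0.0606). Nr4a3, an orphan nuclear receptor, ran from 8.10 to 9.29 in placebo males, with a median of 8.46, and from 9.52 to 11.22 in GnRH males, with a median of 9.79. Animals 18 and 21 again stood highest, and all GnRH males were above all placebo males. Its difference was 1.44 (SE 0.28, adjusted p = 0.0108, with 0.00607 to 0.0522 over 24 alternative fits), and 1.09 (0.0522) without animals 18 and 21. Klf10, a TGF-beta-inducible zinc finger factor, was higher by 0.51 (adjusted p = 0.0189) and the antiproliferative gene Btg1 by 0.31 (adjusted p = 0.00866). Klf10 lost its call without placebo animals 13, 14 or 17 (up to 0.0735) and without animals 18 and 21 (0.0606). Btg1 lost its call only without both animals 18 and 21 (0.0592).

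The classical members Fos, Jun and Egr1 did not pass. Fos ran from 10.94 to 12.42 in placebo males, with a median of 11.52, and from 10.96 to 12.21 in GnRH males, with a median of 11.98, and every GnRH male lay within the placebo range. Its difference was 0.21 (SE 0.30, adjusted p = 0.999, with 0.952 to 0.999 over 24 alternative fits). Egr1, a zinc finger factor of the Lhb promoter, ran from 11.99 to 12.99 in placebo males, with a median of 12.08, and from 11.88 to 13.46 in GnRH males, with a median of 12.71, with animals 18, 20 and 21 above all placebo males at 13.41, 13.46 and 13.32 and the other GnRH males between 11.88 and 12.83. Its difference was 0.45 (adjusted p = 0.987). Jun differed by 0.45 (adjusted p = 0.194), Nr4a1 by 0.54 (adjusted p = 0.894), the MAP kinase phosphatase Dusp1 by 0.26 (adjusted p = 0.999) and Ier2 by 0.26 (adjusted p = 0.842). Exact two-sided permutation tests of 6 against 8 animals were run on 12 genes singly, and give unadjusted p-values beside limma's values adjusted over all genes. The exact p was 0.000333 for Fshb and Nr4a3, the smallest this design can give, 0.000666 for Gnrhr, 0.003 for Atf3, 0.00932 for Lhb and 0.032 for Jun. It was 0.0979 for Cga, 0.102 for Nr4a1, 0.158 for Egr1, 0.164 for Ier2, 0.201 for Dusp1 and 0.461 for Fos by the same exact test. Fosb, which pairs with JUN proteins in AP-1, had the largest difference of the immediate early genes that missed the threshold in limma, 1.50 (adjusted p = 0.0718). Animals 18 and 21 were at 11.96 and 11.86, the other GnRH males between 9.18 and 10.34, and the placebo males between 8.42 and 10.18. Fosb passed without placebo animal 13 (0.0345) or GnRH animal 19 (0.0201), in a range of 0.0201 to 0.327. Of 26 AP-1, ATF and CREB genes tested, 19 had positive differences and 1, Atf3, was called.

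The transcripts of the signalling route between receptor and genes were counted in the same way. Of 30 genes for Gq proteins, phospholipases, protein kinase C, CaM kinase II and MAP kinases, 0 were called by limma in either direction, 0 had an unadjusted p under 0.05, 11 had positive differences and the median was -0.02. With 0.496% of all genes called, a count of 0 in 30 genes is near the background. Its smallest adjusted p was 0.862, for Braf. Among 16 inhibitors that switch MAP kinases off, 14 had positive differences, 0 were called by limma, 4 had an unadjusted p under 0.05 and the median was 0.18. Without animals 18 and 21 that median was 0.0807, and these animals had mean deviations of 0.35 and 0.44 against at most 0.18 in the other GnRH males. The phosphatases Dusp5 and Dusp4 led them with 0.44 (adjusted p = 0.412) and 0.38 (adjusted p = 0.462). Rrad, an RGK GTPase that restrains voltage-gated calcium channels, was called. It ran from 7.01 to 7.33 in placebo males, with a median of 7.18, and from 8.42 to 11.48 in GnRH males, with a median of 9.28. Placebo males were tightly packed, and the GnRH males spread over more than 3 units, from animal 19 at 8.42 to animal 18 at 11.48. Rrad was 5.72-fold higher, a difference of 2.52 (SE 0.38, adjusted p = 0.000991, with 0.000171 to 0.00698 over 24 alternative fits). The other 3 RGK genes gave 0.30 for Rem2, 0.18 for Gem and -0.05 for Rem1, none of them called. The sign of Gem turned without animals 18 and 21 (-0.18). Arrb2, an arrestin that uncouples activated receptors, was higher by 0.44 (adjusted p = 0.0171) and missed the threshold without placebo animals 12 or 14 (up to 0.0703). It was the only call among 18 RGS and arrestin genes, where Rgs2, a brake on Gq, lay just outside with 0.52 (adjusted p = 0.0527), in a range of 0.0298 to 0.151 over the alternatives. Rgs2 passed without GnRH animals 19, 22, 23 or 24. Of the higher genes outside the lists, 3 that encode signalling proteins are given here and were picked after their values were seen. Camk2n2, an inhibitor of CaM kinase II, had 0.44 (adjusted p = 0.00622). Mapk11, the beta form of p38 and a MAP kinase that the list of 30 leaves out, had 0.42 (adjusted p = 0.00959). Rheb, the GTPase that activates mTORC1, had 0.43 (adjusted p = 0.0141). Camk2n2 and Rheb lost their calls without animals 18 and 21 (0.0515 and 0.0918).

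**Figure D2:**
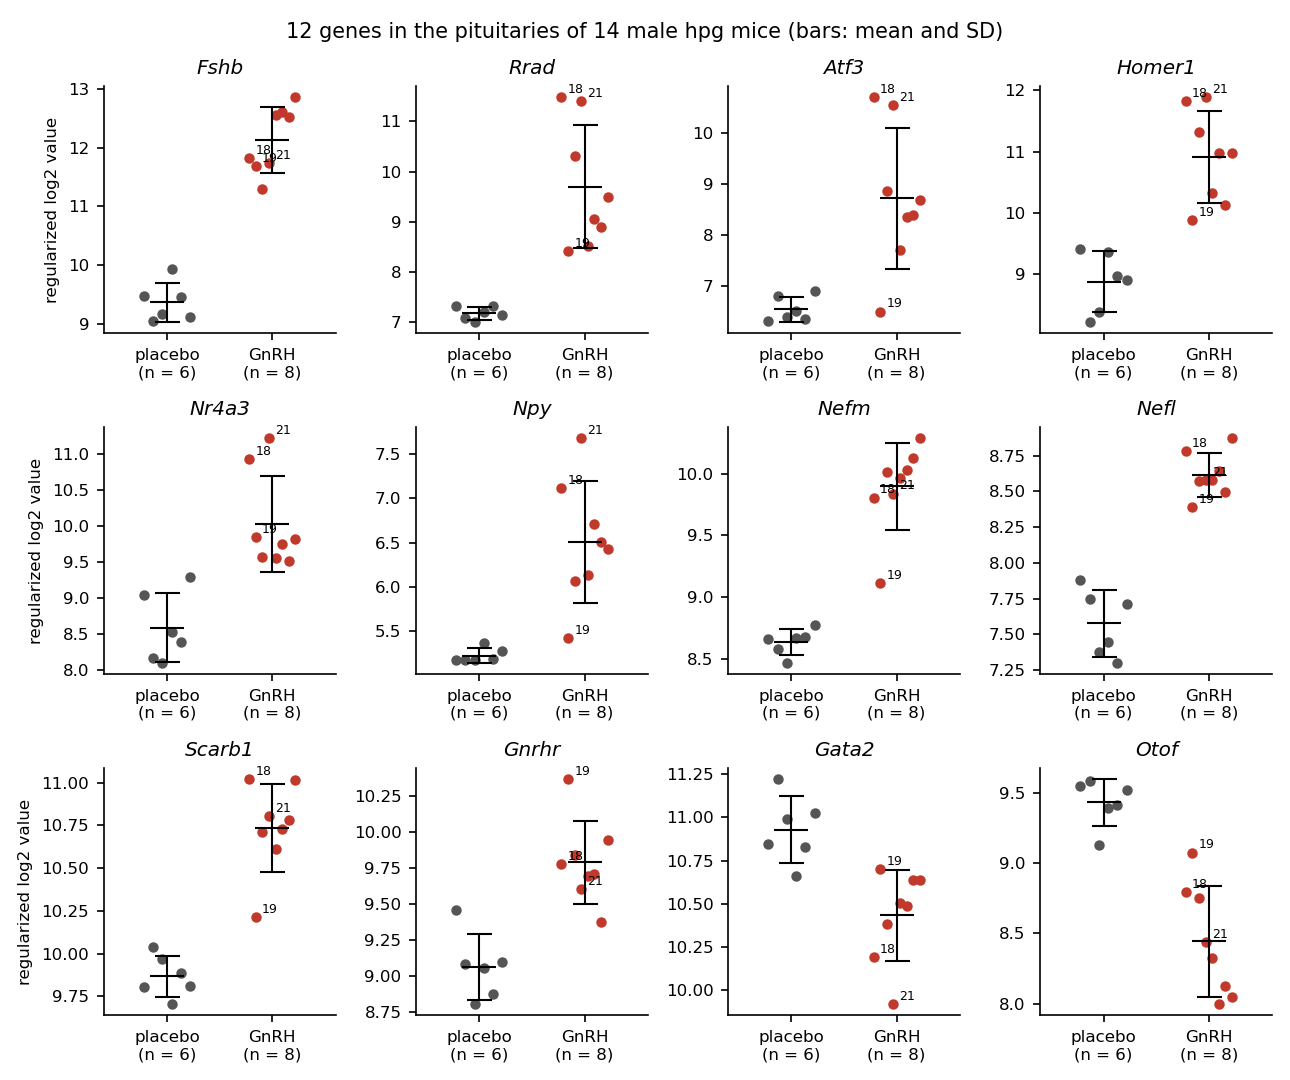
Regularized log2 value of 12 genes in each of the 6 placebo and 8 GnRH males, with the mean and SD of each group. Animals 18, 19 and 21 are numbered: 18 and 21 are the highest for Rrad and Atf3, and animal 19 is the lowest GnRH male for Atf3 at 6.50 and the highest for Gnrhr at 10.37.

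Several of the genes called higher are best known from neurons. Homer1, a scaffold that links glutamate and inositol trisphosphate receptors and has a short activity-induced form, ran from 8.23 to 9.42 in placebo males, with a median of 8.95, and from 9.88 to 11.89 in GnRH males, with a median of 10.97. Every GnRH male exceeded every placebo male, animals 18 and 21 by the widest margin. The difference was 2.03 (SE 0.34, adjusted p = 0.00246, with 0.000657 to 0.0168 over 24 alternative fits). The isoforms of Homer1 cannot be separated in these values. It was the single call among 12 activity-related scaffold genes, of which 9 had positive differences. Arc and Npas4, which neurons transcribe after calcium entry, had differences of 1.42 (adjusted p = 0.128) and 0.98 (adjusted p = 0.124). In Arc, animals 18 and 21 stood at 12.04 and 11.93, and the other GnRH males between 8.80 and 9.89. Both passed without GnRH animal 19, with 0.0491 for Arc and 0.0335 for Npas4. Nefl and Nefm encode the light and medium neurofilament subunits. Nefl ran from 7.30 to 7.88 in placebo males, with a median of 7.58, and from 8.39 to 8.87 in GnRH males, with a median of 8.58. Its GnRH values were close together, and none reached the placebo range. The difference was 1.04 (SE 0.11, adjusted p = 2.07e-06, with 3.69e-07 to 3.74e-05 over 24 alternative fits). Nefm ran from 8.47 to 8.78 in placebo males, with a median of 8.67, and from 9.12 to 10.28 in GnRH males, with a median of 9.99, with animal 19 apart from the other GnRH males, and differed by 1.25 (SE 0.17, adjusted p = 0.000173, with 7.04e-06 to 0.00204 over 24 alternative fits). The heavy subunit Nefh, with -0.07 (adjusted p = 0.999), and the related Ina, with -0.01 (adjusted p = 0.999), were not called, so 2 of 8 intermediate filament genes of that list passed. Npy, a neuropeptide, was low in all placebo males and ran from 5.16 to 5.37 in placebo males, with a median of 5.18, and from 5.42 to 7.68 in GnRH males, with a median of 6.47. Animal 21 was the highest and animal 19 the lowest of the treated, still above every placebo male. Its difference was 1.29 (SE 0.24, adjusted p = 0.00648, with 0.000498 to 0.0322 over 24 alternative fits), on a scale that shrinks differences of low genes. Of 9 neuropeptide genes tested, 8 had positive differences and 1 was called. The acetylcholine receptor subunits Chrna1 and Chrne, best known from muscle, were higher by 0.50 (adjusted p = 0.0189) and 0.29 (adjusted p = 0.0159), and the potassium channel gene Kcna4 by 0.56 (adjusted p = 0.0188). Chrna1 lost its call without placebo animals 13, 14 or 16, Chrne without 13 or 14, and Kcna4 without 12 or 14, with values of up to 0.0833, 0.0616 and 0.0606. Kcna4 was also not called in a fit of males only or with no filter on low values (up to 0.067). Chrna1 and Chrne were also not called without animals 18 and 21, with up to 0.0833 and 0.11 over all their alternatives.

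The secretory pathway changed at a few granule proteins. Of 16 granins and prohormone-processing enzymes, Chga, Vgf and Scg2 were called higher, 0 were called lower by limma (1 had an unadjusted p under 0.05 downward), and the median difference was 0.02. Over all genes tested, 0.496% were called. Chga, chromogranin A, ran from 15.21 to 15.68 in placebo males, with a median of 15.47, and from 15.75 to 16.12 in GnRH males, with a median of 15.94. The groups did not overlap, and the difference was 0.49 (SE 0.0715, adjusted p = 0.000701, with 0.000354 to 0.00645 over 24 alternative fits). Scg2, the precursor of secretoneurin, ran from 14.61 to 15.32 in placebo males, with a median of 15.17, and from 15.51 to 16.00 in GnRH males, with a median of 15.67. Placebo animals 15 and 16 were the lowest, at 14.62 and 14.61, and leaving out either ended the call, as did leaving out GnRH animal 25. The difference was 0.67 (SE 0.14, adjusted p = 0.0209, with 0.00676 to 0.23 over 24 alternative fits). After quantile normalization it was 0.55 (adjusted p = 0.23). Vgf, a granin-like peptide precursor, ran from 8.07 to 8.81 in placebo males, with a median of 8.50, and from 8.74 to 10.69 in GnRH males, with a median of 9.34. Animals 18, 20 and 21 were at 10.69, 10.09 and 10.64, and animal 19 lay inside the placebo range. Its difference was 1.15 (SE 0.24, adjusted p = 0.0171, with 0.00329 to 0.0691 over 24 alternative fits). Vgf lost its call in 3 of the 14 fits without 1 male (adjusted p of up to 0.0641), those without placebo animals 12, 13 and 14. Separate fits of males only (0.0581), with a robust variance model (0.0541), with no filter on low values (0.0691) and without animals 18 and 21 (0.0592) also lost it. Among 29 genes of regulated exocytosis, 1, Syt4, was called higher and 1, Otof, lower. Syt4, a synaptotagmin of granules, differed by 0.64 (adjusted p = 0.0401) but lost its call in 10 of the 14 fits without 1 male (adjusted p of up to 0.142). The core fusion genes Snap25, Stx1a and Vamp2 had differences of 0.04, -0.03 and 0.03, none of them called. Pcsk1 and Pcsk2, the prohormone convertases, gave 0.30 (adjusted p = 0.502) and -0.22 (adjusted p = 0.999).

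Protease inhibitors and other secreted or cell surface proteins held 5 calls that are described here. Serpinb1a, an inhibitor of neutrophil serine proteases, ran from 7.78 to 8.22 in placebo males, with a median of 7.91, and from 8.51 to 9.64 in GnRH males, with a median of 9.09, without overlap, and differed by 1.11 (SE 0.18, adjusted p = 0.00204, with 0.000518 to 0.0157 over 24 alternative fits). Serpine2, or nexin-1, an inhibitor of thrombin and plasminogen activators, ran from 10.00 to 10.45 in placebo males, with a median of 10.27, and from 10.56 to 11.16 in GnRH males, with a median of 10.81, again without overlap, and differed by 0.58 (SE 0.0848, adjusted p = 0.000701, with 0.000316 to 0.00409 over 24 alternative fits). Timp1, an inhibitor of metalloproteinases, ran from 6.84 to 7.04 in placebo males, with a median of 6.90, and from 6.89 to 8.24 in GnRH males, with a median of 7.72. Animal 19, at 6.89, was the only GnRH male inside the placebo range. Timp1 differed by 0.79 (SE 0.14, adjusted p = 0.00518, with 4.27e-05 to 0.0321 over 24 alternative fits). These were 3 calls of 16 protease inhibitors tested, 12 of them with positive differences and a median of 0.11. Over all genes tested, 0.496% were called and 48.5% had positive differences. Spp1, the secreted matrix protein osteopontin, ran from 7.85 to 8.23 in placebo males, with a median of 8.02, and from 7.34 to 9.52 in GnRH males, with a median of 9.11. All GnRH males but animal 19 were above every placebo male, and animal 19, at 7.34, was below every one of them. The difference of 0.90 missed the threshold (adjusted p = 0.196), and without animal 19 it was 1.13 (adjusted p = 0.00713, the lowest of its 24 alternatives, which reached 0.432). Igfbp3, a carrier of insulin-like growth factors, was higher by 0.54 (adjusted p = 0.0191), and the proteoglycan Gpc1 by 0.45 (adjusted p = 0.00398). Igfbp3 lost its call in 4 of the 14 fits without 1 male (adjusted p of up to 0.0703), without placebo animals 12, 13 and 14 and GnRH animal 25.

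Among metabolic genes, 3 that take up, use or store cholesterol were called higher, and 1 that makes it. Scarb1, the receptor that takes up cholesterol from high-density lipoprotein, ran from 9.71 to 10.04 in placebo males, with a median of 9.85, and from 10.21 to 11.02 in GnRH males, with a median of 10.76, with no overlap and with animal 19 the lowest GnRH male. It differed by 0.87 (SE 0.11, adjusted p = 0.000173, with 7.04e-06 to 0.00169 over 24 alternative fits). Fdx1, the ferredoxin that passes electrons to mitochondrial steroid enzymes, rose by 0.52 (SE 0.0946, adjusted p = 0.00556, with 0.00105 to 0.0292 over 24 alternative fits). Soat1, which esterifies cholesterol, differed by 0.51 (adjusted p = 0.0314) but lost its call in 9 of the 14 fits without 1 male (adjusted p of up to 0.0861). The call of Soat1 was also lost without animals 18 and 21, with up to 0.207 over all its alternatives. Of 15 such genes, 3 were called, beside 0.496% of all genes tested, 10 had positive differences and the median was 0.02. Of 20 genes of sterol synthesis, 6 had positive differences, the median was -0.06, and 1, Pmvk, was called (0.35, adjusted p = 0.0265), which it lost in 6 of the 14 fits without 1 male (adjusted p of up to 0.104). Srxn1, sulfiredoxin, which repairs oxidized peroxiredoxins, ran from 10.67 to 11.63 in placebo males, with a median of 11.49, and from 11.76 to 13.20 in GnRH males, with a median of 12.07. Animals 18, 20 and 21 were between 12.98 and 13.20, and the other GnRH males between 11.76 and 12.08. It differed by 1.11 (SE 0.24, adjusted p = 0.021, with 0.0128 to 0.129 over 24 alternative fits). The call was lost in 5 of the 14 fits without 1 male (adjusted p of up to 0.0861). Separate fits with a robust variance model (0.0674), with no filter on low values and without animals 18 and 21 (0.129) also lost it. Srxn1 was the single call of 18 antioxidant genes, whose median was 0.01, and NRF2 targets such as Gclm and Nqo1 gave -0.08 and -0.11, neither called. Ephx2, soluble epoxide hydrolase, rose by 0.60 (SE 0.0802, adjusted p = 0.000173, with 4.54e-05 to 0.00119 over 24 alternative fits), in 8 of 8 GnRH males above every placebo male. Gch1, the first enzyme of tetrahydrobiopterin synthesis, differed by 0.53 (adjusted p = 0.0448) and lost its call in 11 of the 14 fits without 1 male (adjusted p of up to 0.154), and Gla, a lysosomal galactosidase, rose by 0.44 (adjusted p = 0.00204).

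The called genes of actin filaments and of contacts between cells differed by under 1. Of 23 targets of serum response factor and cytoskeletal genes, 19 had positive differences, 4 were called (Tpm4, Zyx, Actb and Actg1), and the median was 0.18. Over all genes tested, 48.5% had positive differences and 0.496% were called. Tpm4, a tropomyosin, ran from 10.64 to 10.98 in placebo males, with a median of 10.75, and from 11.05 to 11.61 in GnRH males, with a median of 11.23, without overlap, and differed by 0.52 (SE 0.0812, adjusted p = 0.00115, with 0.000695 to 0.00667 over 24 alternative fits). Zyx, the adhesion protein zyxin, differed by 0.37 (adjusted p = 0.0252), and the actins Actb and Actg1 by 0.33 (adjusted p = 0.0262) and 0.55 (adjusted p = 0.0384). These 3 lost their calls in 7, 7 and 8 of the 14 fits without 1 male, with up to 0.0897, 0.0861 and 0.116. They also lost them without animals 18 and 21, and over all alternatives adjusted p reached 0.171, 0.172 and 0.231. Actb and Actg1 were also not called after quantile normalization (0.172 and 0.069). Actin genes have near-identical pseudogenes, so their values are uncertain where reads were shared. Outside the list, Csrp2, a LIM-domain protein, rose by 0.67 (SE 0.11, adjusted p = 0.00134, with 5.82e-05 to 0.00772 over 24 alternative fits). Wdr1, which disassembles actin filaments with cofilin, rose by 0.35 (adjusted p = 0.00657), a call lost without animals 18 and 21 (0.0545), and Vasp, which extends them, differed by 0.23 (adjusted p = 0.0378). The tight junction genes Cldn7 and Marveld2 differed by 0.49 (adjusted p = 0.0171) and 0.47 (adjusted p = 0.0213), and the epithelial keratin gene Krt18 by 0.35 (adjusted p = 0.0441). Vasp, Marveld2 and Krt18 lost their calls in 10, 5 and 10 of the 14 fits (up to 0.111, 0.0905 and 0.123), and Cldn7 in 2, without placebo animals 14 or 16 (up to 0.0661). Each of these genes was also not called without animals 18 and 21. Over all alternatives, adjusted p reached 0.217 for Vasp, 0.149 for Marveld2, 0.248 for Krt18 and 0.116 for Cldn7. Krt18 was not called after quantile normalization (0.0642).

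Receptors and regulators of transcription followed. Tnfrsf12a, the receptor of the cytokine TWEAK, ran from 8.05 to 8.56 in placebo males, with a median of 8.28, and from 8.48 to 9.44 in GnRH males, with a median of 9.12, with animal 19, at 8.48, the one GnRH male inside the placebo range. It differed by 0.78 (SE 0.12, adjusted p = 0.00134, with 4.27e-05 to 0.0117 over 24 alternative fits). It was the one call of 17 NF-kappaB and TNF receptor genes, of which 16 had positive differences, with a median of 0.13. Relb and Rela had 0.29 (adjusted p = 0.132) and 0.18 (adjusted p = 0.247), and Relb passed without GnRH animal 19. Of 15 coregulators, Cited4, a CBP-binding protein, rose by 0.53 (SE 0.10, adjusted p = 0.0108, with 0.00412 to 0.0606 over 24 alternative fits), and Nab2, a corepressor of EGR factors, by 0.68 (SE 0.13, adjusted p = 0.0127, with 0.00388 to 0.0631 over 24 alternative fits). Nab2 missed the threshold without placebo animal 14 (0.0549), and both missed it without GnRH animals 18 and 21 (0.0606 for Cited4 and 0.0631 for Nab2). Its partner Nab1 gave 0.30 (adjusted p = 0.121). Bcl6b, a zinc finger repressor, rose by 0.81 (SE 0.13, adjusted p = 0.00157, with 2.71e-05 to 0.00843 over 24 alternative fits), with animal 19 the only GnRH male inside the placebo range (7.29). Gadd45g, a growth arrest gene, rose by 0.46 (adjusted p = 0.00774), a call lost without animals 18 and 21 (0.0606), and Gadd45b and the CDK inhibitor Cdkn1a had 0.58 (adjusted p = 0.0625) and 0.48 (adjusted p = 0.117). Gadd45b passed without GnRH animals 19, 22 or 23. Sertad1, a transcriptional coregulator, was at 0.46 (adjusted p = 0.0588) and passed without placebo animals 15 or 16 or GnRH animal 19. Neurod1, a helix-loop-helix factor of corticotropes, was higher by 0.46 (adjusted p = 0.0171), losing its call without placebo animals 14 or 16 (up to 0.057). That call also ended without GnRH animals 18 and 21 and with no filter on low values (up to 0.119). Mamld1, a Notch pathway coactivator, was higher by 0.62 (adjusted p = 0.0159), losing its call without placebo animal 16 (0.0551). Ets2, an ETS factor, differed by 0.39 (adjusted p = 0.0245) and lost its call in 8 of the 14 fits without 1 male (adjusted p of up to 0.0803). It also lost it without animals 18 and 21, with up to 0.171 over all its alternatives. Dot1l, which methylates histone H3, rose by 0.34 (adjusted p = 0.0127), a call lost without animals 18 and 21 (0.0866).

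Only 9 genes were called lower. Otof, otoferlin, a calcium sensor of vesicle release in hair cells, ran from 9.13 to 9.58 in placebo males, with a median of 9.47, and from 8.00 to 9.08 in GnRH males, with a median of 8.38. All GnRH males were below all placebo males, animal 19 nearest to them at 9.08 and animals 22 to 25 lowest, between 8.00 and 8.32. Otof was 1.98-fold lower, a difference of -0.99 (SE 0.17, adjusted p = 0.00263, with 0.000462 to 0.0163 over 24 alternative fits). Hk2, hexokinase 2, ran from 8.57 to 8.80 in placebo males, with a median of 8.64, and from 8.22 to 8.52 in GnRH males, with a median of 8.31, also without overlap, and fell by 0.32 on the log2 scale (SE 0.0558, adjusted p = 0.00363, with 0.00149 to 0.0168 over 24 alternative fits). Those 2 were the lower genes that kept their call in every fit without 1 male. Aif1l, an actin-bundling protein, ran from 6.73 to 7.09 in placebo males, with a median of 6.75, and from 5.99 to 6.68 in GnRH males, with a median of 6.34, with animal 19 nearest to the placebo males, and differed by -0.51 (SE 0.10, adjusted p = 0.016, with 0.00412 to 0.0564 over 24 alternative fits). Its call ended without placebo animals 12 or 17. Bean1, a membrane protein that binds the ubiquitin ligase NEDD4, differed by -0.53 (adjusted p = 0.0213), losing its call in 5 of the 14 fits without 1 male (adjusted p of up to 0.0861). The potassium channel gene Kcng4 differed by -0.44 (adjusted p = 0.0398), Klhl14 by -0.32 (adjusted p = 0.0286), the galactosyltransferase gene B3galt5 by -0.22 (adjusted p = 0.0265) and the reductase-like Akr1cl by -0.23 (adjusted p = 0.0171). Of these, Kcng4, Klhl14 and B3galt5 lost their calls in 11, 8 and 7 of the 14 fits, with up to 0.146, 0.11 and 0.0936, and Akr1cl without placebo animals 12 or 17 (up to 0.0587).

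**Figure D3:**
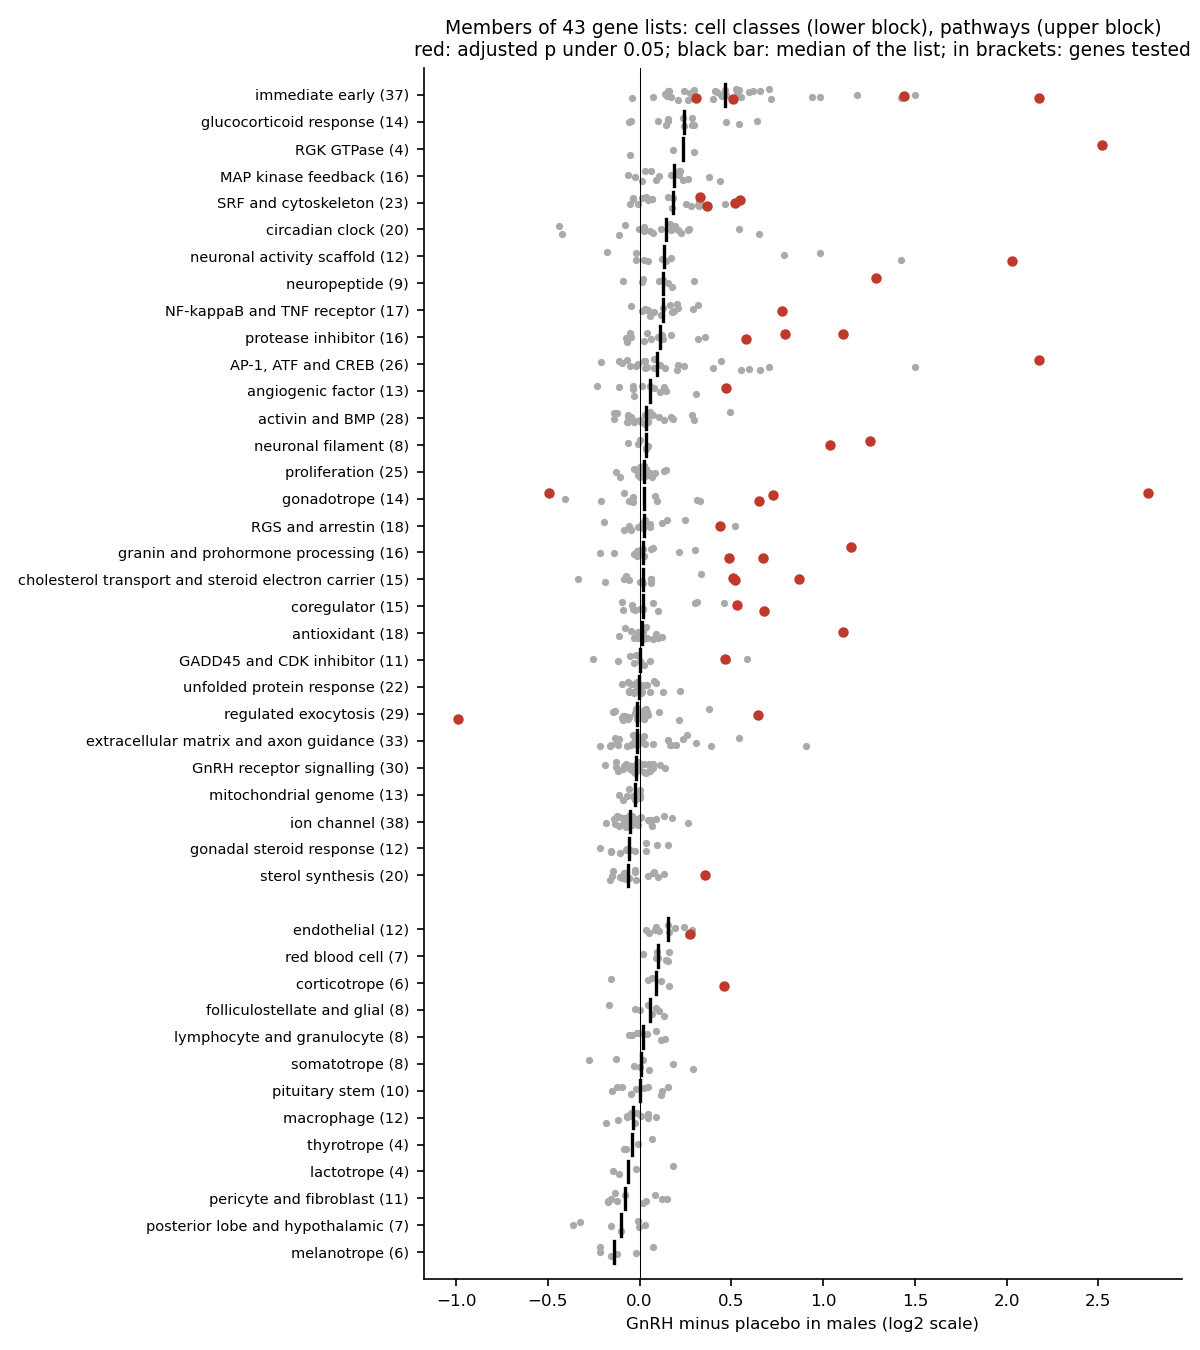
Difference between GnRH and placebo males (log2 scale) for each tested member of 43 gene lists, with 13 cell classes in the lower block and 30 pathways in the upper one. Red points passed the threshold and black bars are medians. Immediate early genes have the highest median, 0.47, and the cell class medians lie between -0.14 and 0.16.

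Of 102 tested markers of other pituitary cell types, 2 were called, Neurod1 and Emcn, which is 1.96% beside 0.496% of all genes tested. Of the 13 cell-class lists, 11 had 0 called members by limma, and 3 of their members had an unadjusted p under 0.05, Ghrhr with 0.29 (adjusted p = 0.379) and Sstr2 with -0.28 (adjusted p = 0.706) of somatotropes and Kcnj8 with 0.15 (adjusted p = 0.436) of pericytes. Gh, growth hormone of somatotropes, differed by 0.00 (adjusted p = 0.999), Prl of lactotropes by 0.18 (adjusted p = 0.999), Tshb of thyrotropes by -0.07 (adjusted p = 0.999), Pomc of corticotropes and melanotropes by -0.16 (adjusted p = 0.999) and Pax7 of melanotropes by -0.22 (adjusted p = 0.874). The sign of Tshb turned in 3 of its alternatives, as listed in the closing section. The stem cell factors Sox2 and Sox9 gave -0.12 and -0.15, the macrophage receptors Csf1r and Cx3cr1 -0.07 and -0.18, and S100b of folliculostellate cells 0.07. Oxt and Avp of the posterior lobe gave -0.16 and -0.01. None of these passed. List medians outside the endothelium ran from -0.14 for melanotropes to 0.10 for red blood cells, whose globin transcripts had been depleted. Without animals 18 and 21 the red blood cell median was 0.30, and that of posterior lobe and of pericyte genes moved from -0.10 to -0.15 and from -0.08 to -0.15. The mean deviation of red blood cell genes in single males ran from -0.81 in placebo animal 13 to 1.31 in GnRH animal 22. Endothelial markers and red blood cell genes were the classes whose tested members all had positive differences. The 12 endothelial differences ran from 0.0368 to 0.29, with a median of 0.16. Emcn, the sialomucin endomucin, was the 1 called (0.27, adjusted p = 0.0416), and it lost that in 9 of the 14 fits without 1 male (adjusted p of up to 0.119). Tie1 and Plvap had 0.29 (adjusted p = 0.0918) and 0.19 (adjusted p = 0.158), and Tie1 passed without GnRH animal 19. The mean of the list relative to placebo males ran from -0.03 to 0.06 in placebo males and -0.04 to 0.33 in GnRH males, where animal 19, at -0.04, was the only treated male not above every placebo male. Vegfa, the endothelial growth factor, rose by 0.47 (SE 0.0825, adjusted p = 0.00376, with 3.72e-05 to 0.0236 over 24 alternative fits), and was the one call of 13 angiogenic factors, 8 of them with positive differences. Gimap6, a GTPase of immune and endothelial cells, differed by 0.38 (adjusted p = 0.033), losing its call in 11 of the 14 fits without 1 male (adjusted p of up to 0.104). The part of endothelial cell number in these values was not tested. Neurod1 was the one call of the corticotrope list, whose other 5 tested members lay between -0.16 and 0.16.

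In 9 further pathway lists the count of calls was 0, which for lists of 12 to 38 genes is near the background of 0.496%. By limma, 0 genes were called among 14 glucocorticoid-responsive genes, though 12 had positive differences with a median of 0.24 and 4 had an unadjusted p under 0.05. Pdk4 and Per1 led with 0.64 (adjusted p = 0.209) and 0.54 (adjusted p = 0.441). Per animal, that list ran from -0.30 to 0.22 in placebo males and -0.07 to 0.51 in GnRH males, so the groups overlapped. Counts were also 0 for 28 activin and BMP genes (5 at an unadjusted p under 0.05), 22 genes of the unfolded protein response (2), 20 clock genes (3), 25 proliferation genes (1), 12 gonadal steroid genes (0), 38 ion channels (2), 33 matrix and axon guidance genes (9) and 13 mitochondrial transcripts (0). The ion channel list is not complete: the called channel genes Kcna4, Kcng4, Chrna1 and Chrne, described above, are outside it. Inhbb and Inha, which encode the subunits of inhibin B, had 0.17 (adjusted p = 0.872) and 0.05 (adjusted p = 0.999), and Bambi and Id1, targets of BMP signalling, 0.30 (adjusted p = 0.157) and 0.49 (adjusted p = 0.182). Fst, which encodes follistatin, had a mean under 3 and was not tested. The estrogen receptor gene Esr1 had -0.07 (adjusted p = 0.999).

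The 8 GnRH males differed among themselves. Over the 86 higher genes, the mean deviation from placebo males ran from 0.34 in animal 19 to 0.89 in animal 18. These genes were chosen on the same contrast, so this describes the animals and tests nothing. Animal 19 was the lowest GnRH male for 41 of the 86 genes and lay above every placebo male for 61, while animal 25 did so for all 86. Animal 18 was the highest for 32, animal 21 for 21 and animal 25 for 17. The spread of the higher genes was wider with GnRH: the median SD was 0.213 against 0.130 in placebo, and it was larger in 73 of 86 genes, against 44.3% of all genes tested. The order of the animals differed between gene groups. The mean deviation of the immediate early list was 1.30 in animal 18 and 1.34 in animal 21, 0.63 in animal 20 and 0.18 to 0.42 in the other 5, against -0.25 to 0.18 in placebo males. For Fshb, animals 18 to 21 were the 4 lowest GnRH males (11.30 to 11.82) and animals 22 to 25 the 4 highest. Animal 19 was not above the placebo range for Atf3, Timp1, Spp1 or the endothelial list, and had Fshb at 11.69, above every placebo male, and the highest Gnrhr. Without animals 18 and 21, 34 genes were called higher and 4 lower. The median of the immediate early list was then 0.25 with 33 of 37 positive, but 0 of its members were called higher, against 4 in the main fit. Fshb, Rrad, Homer1, Npy and Gnrhr kept their calls, with 2.89, 1.94, 1.72, 0.99 and 0.76. The sources used here name no batch or date that would set these animals apart.

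**Figure D4:**
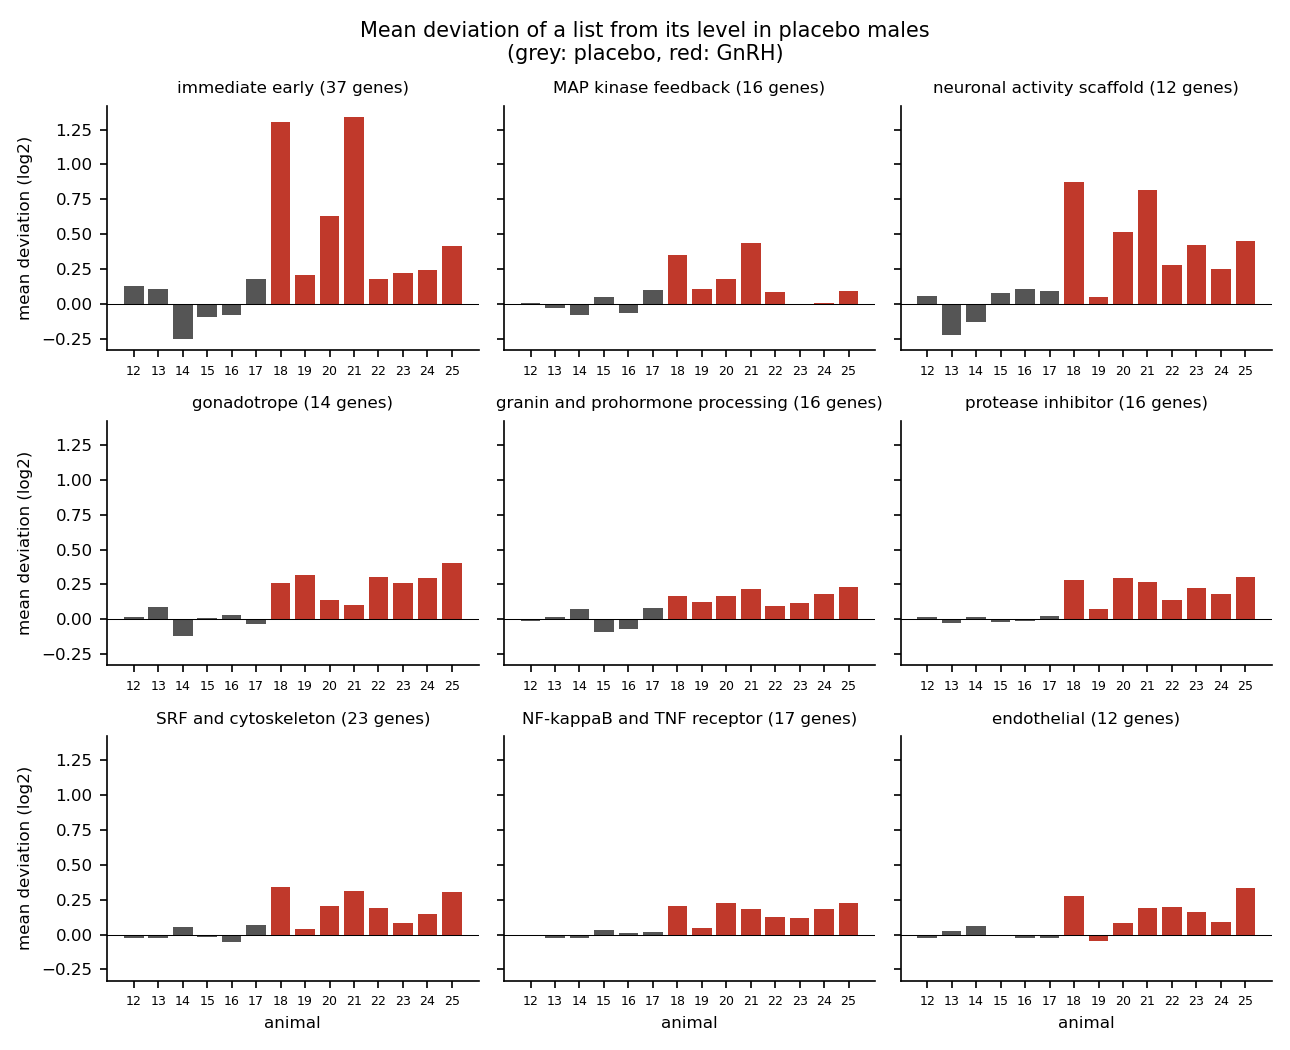
Mean deviation (log2) of 9 gene lists from their level in placebo males, for each of the 14 males. Animals 18 and 21 stand out for immediate early genes, at 1.30 and 1.34, and animal 19 is the lowest GnRH male for endothelial markers, at -0.04.

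The same treatment was given to the 11 females of the series, 5 with placebo and 6 with GnRH, and the difference of the effect between the sexes was fitted in the same model. By limma, 0 of 19141 genes passed (529 at an unadjusted p under 0.05, smallest adjusted p = 0.999), and 0 passed in any of the alternative fits that held females. The effect on Fshb was 2.77 in males and 2.07 in females, which differ by 0.70 (95% interval -0.05 to 1.45). For Atf3 the effects were 2.18 and 1.98, differing by 0.20 (95% interval -1.19 to 1.59), and for Gnrhr 0.73 and 0.59, differing by 0.14 (95% interval -0.32 to 0.61). Among the 95 genes called in males, 8 had an unadjusted p under 0.05 for the difference. The 95 were chosen on the male effect, which is part of this difference, so the count can be raised by that choice and tests nothing. Of the 8, Scg2 had the largest difference among those with a name, 0.45 (unadjusted 95% interval 0.01 to 0.89), from 0.67 in males and 0.22 in females. Adprhl1, Spag4 and Ets2 followed, which differed by 0.27, 0.26 and 0.26. None passed after adjustment. The intervals of single genes are wide, so equal effects are not shown either.

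**Figure D5:**
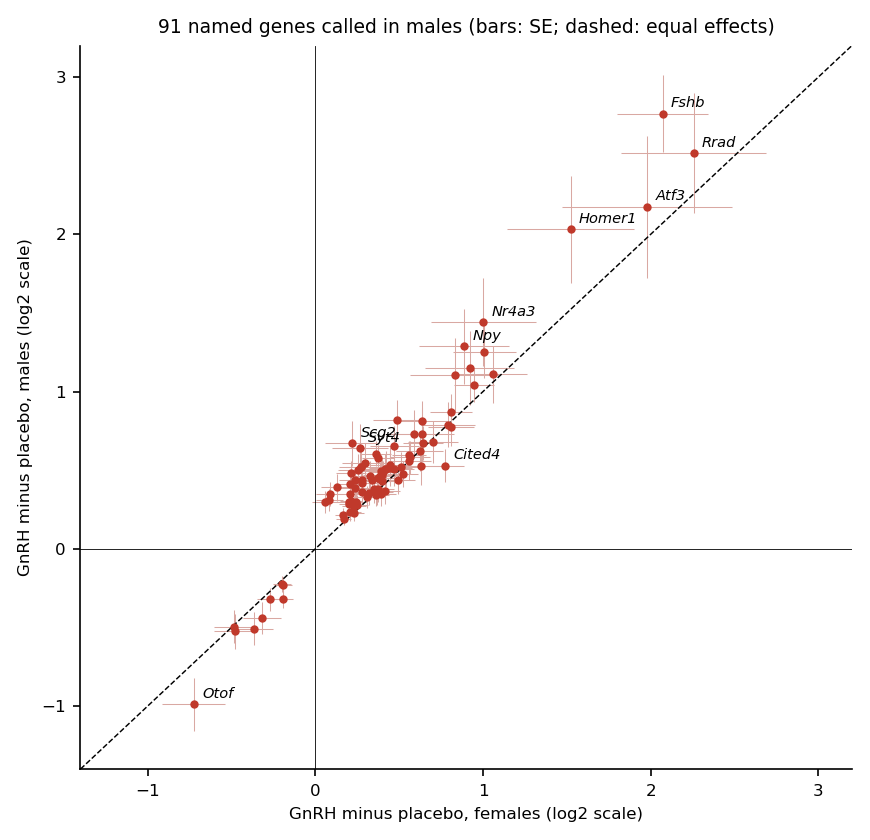
Difference between GnRH and placebo in females (x axis) and males (y axis), log2 scale, for the 91 named genes called in males, with SE bars and a dashed line of equal effects. The genes were chosen for their difference in males, which favours larger values on the y axis, and Fshb lies at 2.07 and 2.77.

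The other named genes described here were all called higher in males. Phex, a membrane endopeptidase of phosphate regulation, rose by 0.82 (adjusted p = 0.000991), 0.000195 to 0.00667 over its alternatives. Tbkbp1, an adaptor of the kinase TBK1, rose by 0.60 (adjusted p = 0.000758), 3.26e-05 to 0.00477 over its alternatives. Slc4a11, a membrane transporter, rose by 0.58 (adjusted p = 0.00648), 0.000859 to 0.0423 over its alternatives. Adprhl1, an ADP-ribosylhydrolase-like protein, rose by 0.48 (adjusted p = 0.00246), 0.000623 to 0.0166 over its alternatives. Fndc4, a secreted fibronectin type III protein, rose by 0.44 (adjusted p = 0.00648), 0.00307 to 0.0524 over its alternatives. Tinf2, a telomere protein, rose by 0.41 (adjusted p = 0.0059), 0.000498 to 0.0468 over its alternatives. Each of these kept its call without any 1 male, Fndc4 lost it without animals 18 and 21, and the following lost it in fits without 1 male. Differences were 0.73 for Lor, loricrin of the cornified envelope, 0.52 for Emd, emerin of the nuclear envelope, 0.51 for Pim1, a serine/threonine kinase induced by cytokines and 0.50 for Ubald1, with calls lost in 10, 9, 9 and 1 of 14 fits and adjusted p of up to 0.105, 0.154, 0.0941 and 0.0546. The values were 0.45 for Tubb2a, a beta tubulin, 0.39 for Cbarp, a regulator of calcium channels, 0.38 for Zswim4 and 0.36 for Hmcn2, a hemicentin, with calls lost in 1, 11, 9 and 9 of 14 fits and adjusted p of up to 0.0561, 0.172, 0.109 and 0.137. Next came 0.36 for Chst15, a chondroitin sulfotransferase, 0.35 for Spag4, 0.31 for Dnaja1, a cochaperone of HSP70 and 0.30 for Fbxo34, with calls lost in 4, 6, 8 and 12 of 14 fits and adjusted p of up to 0.0834, 0.096, 0.154 and 0.117. The smallest were 0.28 for Elovl5, a fatty acid elongase, 0.21 for Unc45a, a myosin cochaperone and 0.19 for Lrrc2, with calls lost in 8, 4 and 5 of 14 fits and adjusted p of up to 0.102, 0.0703 and 0.0834. Ubald1 missed the threshold without placebo animal 14 and Tubb2a without placebo animal 16. A further 4 of the 86 higher genes carry predicted, clone or no names and are not described.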

How the data were processed

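Pituitaries of 25 hpg/hpg mice were sequenced, of which the 14 males are described here. Per the submitters' processing notes, bcl2fastq, STAR and featureCounts were used with the mouse build mm10. Their versions, the annotation and the strand setting were not given in the sources used here, so overlapping and antisense genes cannot be told apart. The authors deposited regularized log2 values, which shrink differences of genes with few reads, for 47069 genes. No counts were analysed here, so depth is unknown and no counting intervals are given.

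Genes with a mean of at least 3 over the 25 libraries were tested (19141). The fit used limma 3.58.1 (R 4.3.3), with 1 mean per sex and treatment and a mean-dependent variance, giving 21 residual degrees of freedom. P-values were adjusted by Benjamini-Hochberg over all genes tested and called under 0.05. They set each difference against 1 spread per gene, pooled over the groups of both sexes. This pooled spread does not follow the wider spread of the higher genes in GnRH males. The design text gives fewer replicates than the labels give GnRH males, and the labels were followed. The scripts were tested on simulated data with independent values and equal spread in all groups, so the wider spread in GnRH males was not covered.

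The animals, the 43 gene lists (686 symbols, 650 tested) and the tests were chosen with earlier results of these data known. Genes named were 12 chosen genes, called genes without clone or predicted names, called members and up to 3 lowest-p members of each list, and 2 markers of each cell class. Further list members were named after their values were seen. Alternatives changed the samples fitted, normalization, filter, variance model or animals. Some results, among them those of 1 called gene, are not reported here.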

Additional observations from a re-analysis of the deposited data

Results flagged for a closer look

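The highest or lowest animal of a group was set against the range of that group in 468 groups of values, and it stood far from the others in 22 of them (4.7%). Chance alone gives about 1 in 20 groups.

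GnRH animal 19 was the low one in 8 of the 22. Its values were 9.12 for Nefm, 7.29 for Bcl6b, 10.20 for Vegfa, 10.24 for Nab2, 11.03 for Dot1l, 9.22 for Klf10, 7.50 for Gimap6 and 7.34 for Spp1. Except for Spp1, each of these genes was called higher in GnRH males. Other GnRH males stood apart for Syt5, where animal 23 was low at 9.63, for mt-Nd3, where animal 23 was high at 12.40, and for Sox2, where animal 24 was low at 8.95.

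The other 11 lay in placebo males. Animal 13 was high for Ier2, at 9.73, and for Lrrc2, at 4.08. Animal 14 was low for Gadd45b, at 8.15, and high for Col1a2, at 12.49. Animal 15 was high for the mitochondrial transcripts mt-Nd2, at 15.70, and mt-Nd5, at 16.57, and its mean over the mitochondrial list was 0.55 above placebo level. Animal 16 was low for Pcsk2, at 12.22, and Col25a1, at 9.15, and its mean over melanotrope markers was -0.42. Animal 17 was high for Prkce, at 11.08.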

How the results depend on the processing

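The 91 named genes called in males and 100 others were refitted under 24 alternatives, or 23 where a filter removed the gene. None of the 91 changed direction in any of them, 28 kept their call in all, and 37 in all 14 fits that left out 1 male. The count of 95 calls was 94 with males only, 93 after quantile normalization, 101 after median centring or with a mean of at least 5, 84 with robust variance and 96 without a variance trend. It was 126 with a weight per group shared by all genes, which does not follow the wider spread of the higher genes in GnRH males. It was 42 (37 higher, 5 lower) with no filter on low values, which tests more genes, and 38 (34 higher, 4 lower) without GnRH animals 18 and 21. Leaving out 1 male gave 46 to 153 calls, 40 to 138 higher and 3 to 15 lower. The total was 58, 60 and 46 without placebo animals 12, 13 and 14, 153 without GnRH animal 19 and 63 without GnRH animal 25, and the cause was not tested. The count of genes that differed between the sexes was 0 in all 23 fits that held females.

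Of the 100 others, 8 changed sign in some fit. Without animals 18 and 21, Gem was -0.18 and Tshb 0.026. Leaving out 1 male gave Tshb values from -0.23 (without placebo animal 12) to 0.17 (without placebo animal 16), with 0.014 without GnRH animal 19. Without placebo animal 15, mt-Nd2 was 0.041, mt-Nd5 0.032 and mt-Nd3 0.080, and their other extremes were -0.12, -0.10 and -0.21, all without placebo animal 17. Without GnRH animal 22, Slc4a1 was -0.016, Hba-a1 -0.044 and Hba-a2 -0.069, and their highest values were 0.24, 0.33 and 0.33. Without placebo animal 13, Hba-a1 was -0.039 and Hba-a2 -0.059, near-identical genes whose reads cannot be assigned with certainty. No paired analysis was possible because each animal has its own number and nothing in the labels pairs placebo with GnRH animals.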
